A study of Mus musculus with 14 samples.

Results

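The 6 mouse Iroquois genes, Irx1 to Irx6, were followed by the HindIII fragments that hold their transcription start sites in GENCODE vM21 and served as baits in promoter capture Hi-C. Each gene had 1 such fragment, so the set held 6 of the 22171 baits of the capture. Promoter capture Hi-C ligates DNA ends that lie close together in crosslinked nuclei and then enriches the ligation products of promoter fragments. The deposited values were CHiCAGO scores, which weigh the reads joining a bait and another fragment against the reads that distance and technical noise would give, and only pairs scoring 5 or more were listed. An unlisted pair was set to 0 here, although its true score could be anything below 5.

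The 14 libraries came from cranial neural crest cells, 2 libraries for each of 7 conditions. At E10.5 cells were taken from the second pharyngeal arch (PA2), from the mandibular (Md) and the maxillary (Mx) part of the first arch and from the frontonasal process (FNP) of Wnt1::Cre;ROSARFP embryos, which the study treats as wild type. The Wnt1 promoter drives Cre in the neural crest lineage, and red fluorescent cells were sorted. The same cross gave the pinna, the outer ear that grows largely from the second arch, at E12.5 and E14.5. The knockout PA2 libraries at E10.5 (PA2 KO) came from Hoxa2EGFP/EGFP embryos, in which EGFP is knocked into both Hoxa2 alleles and green cells were sorted, so genotype and sorting reporter cannot be told apart. FNP, Mx and Md are Hox-negative, whereas wild-type PA2 and pinna express Hoxa2. Embryos of both sexes were pooled in each library. Stage and tissue change together between PA2 and pinna, and the E14.5 pinna was dissociated with papain rather than trypsin, so none of these can be told apart. All pinna libraries are in the Hoxa2-expressing group, and all Hox-negative libraries are from E10.5. In comparisons of these groups, Hoxa2 expression and stage therefore cannot be told apart.

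Library lists held 113670 to 186248 pairs within chromosomes, and those of PA2 KO were the shortest. Pairs between chromosomes made up 2.64% to 5.61% of the list in 12 libraries, but 46.5% in Md replicate 1 and 62.7% in E12.5 pinna replicate 2. These 2 libraries stood apart, so the measures below were also computed without both. Their deposited lists are marked as merged, and what was merged is unknown here. The tests below treat all libraries as independent, which could not be checked for these 2. The data give contacts and no transcript levels, so the sorted cell type could not be checked against its markers here.

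Iroquois genes encode homeodomain transcription factors of the TALE class, named for a 3-amino-acid loop extension in the homeodomain, and they pattern many embryonic tissues. In mammals they lie in a pair of clusters that arose by duplication: Irx1, Irx2 and Irx4 in one, and Irx3, Irx5 and Irx6 in the other. Both clusters are spread through long stretches with few other genes, and regulatory sequences in these stretches act over large distances. Beside the Irx3-Irx5-Irx6 cluster lies Fto, which encodes an RNA demethylase and whose introns are known from other tissues to contact the Irx3 promoter.

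All coordinates are those of GRCm38. The Irx1-Irx2-Irx4 cluster spanned 1312 kb, chr13:71957921-73269608. Its baits were chr13:71961762-71966125 for Irx1, on the minus strand, chr13:72627544-72629632 for Irx2 and chr13:73252889-73266302 for Irx4, both on the plus strand. The Irx3-Irx5-Irx6 cluster spanned 882 kb, chr8:91798525-92680956. Its baits were chr8:91798172-91804278 for Irx3, on the minus strand, chr8:92356599-92358547 for Irx5 and chr8:92669971-92676975 for Irx6, both on the plus strand. The Irx2 bait also held the start of Gm20554 and the Irx3 bait that of Irx3os, so contacts of these genes cannot be told apart from those of Irx2 and Irx3. Bait lengths ran from 1949 bp for Irx5 to 13414 bp for Irx4.

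A handful of stretches carry the contacts described below. The Irx2 promoter is the end of one of the strongest long-distance promoter pairs of the data, and the Irx4 promoter is the end of a promoter pair that was listed in every E10.5 library and in only 1 pinna library. RefSeq bases of GRCm38.p6 on the plus strand before each gene's start are printed, with capitals marking GGGCGG, the core of a GC box. Each held 2 copies. GGGCGG or its complement CCGCCC was found in 32.7% of 32851 RefSeq promoter windows of the Irx2 window's length and in 30.1% of windows of the Irx4 window's length. The GC content was 68.4% for Irx2 and 68.1% for Irx4.
Irx2 promoter, chr13:72628570-72628819: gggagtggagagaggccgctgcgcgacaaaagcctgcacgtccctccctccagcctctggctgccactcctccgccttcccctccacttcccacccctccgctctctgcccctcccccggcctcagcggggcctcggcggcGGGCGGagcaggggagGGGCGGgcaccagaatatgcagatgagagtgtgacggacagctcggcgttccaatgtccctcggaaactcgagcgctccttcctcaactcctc
Irx4 promoter, chr13:73260247-73260478: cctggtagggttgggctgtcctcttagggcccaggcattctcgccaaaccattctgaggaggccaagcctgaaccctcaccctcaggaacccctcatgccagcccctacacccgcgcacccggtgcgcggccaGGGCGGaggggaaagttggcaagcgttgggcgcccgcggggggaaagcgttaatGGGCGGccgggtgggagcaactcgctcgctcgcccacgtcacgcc

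The other 3 stretches are the far ends of contacts, read from the plus strand, and capitals mark what is left of the HindIII sites at the fragment ends. The first is a whole fragment of 197 bp in an intron of Crnde, a long noncoding RNA gene that starts next to Irx5, which the Irx3 bait contacted in all 14 libraries. The second is the first 300 bases of a fragment of 1817 bp past the end of Irx4, whose score with Irx1 differed between conditions. These bases overlapped no annotated gene, and the rest of the fragment reached Gm48000. The third is the first 300 bases of a fragment of 3979 bp in Rpgrip1l, which encodes a protein of the ciliary transition zone. The whole fragment also overlapped Gm45428 and was listed with Irx3 in the 4 pinna libraries and in no E10.5 library. None of the 3 overlapped an annotated exon.
Crnde fragment, chr8:92355010-92355206: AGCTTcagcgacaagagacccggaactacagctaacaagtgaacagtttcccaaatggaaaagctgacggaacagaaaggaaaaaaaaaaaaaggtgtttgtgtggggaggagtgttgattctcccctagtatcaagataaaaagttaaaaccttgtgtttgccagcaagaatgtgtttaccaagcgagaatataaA
Fragment past Irx4, chr13:73272251-73272550: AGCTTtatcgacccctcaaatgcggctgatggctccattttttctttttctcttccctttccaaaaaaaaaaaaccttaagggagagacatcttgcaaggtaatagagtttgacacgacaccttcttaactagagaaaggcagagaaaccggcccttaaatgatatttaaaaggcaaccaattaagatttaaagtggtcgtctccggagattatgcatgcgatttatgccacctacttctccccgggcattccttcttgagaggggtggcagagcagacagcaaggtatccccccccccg
Rpgrip1l fragment, chr8:91302029-91302328: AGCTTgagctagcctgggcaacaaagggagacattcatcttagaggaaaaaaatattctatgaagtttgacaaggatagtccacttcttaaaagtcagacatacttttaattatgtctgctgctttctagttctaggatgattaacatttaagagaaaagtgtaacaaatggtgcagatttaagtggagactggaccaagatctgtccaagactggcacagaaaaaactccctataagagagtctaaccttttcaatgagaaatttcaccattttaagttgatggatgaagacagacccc

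Within each cluster, the promoters of 2 genes were joined by a strong pair in every library, while the third gene was joined less often or not at all. The Irx1 and Irx2 baits, 665 kb apart, were listed in all 14 libraries. Their scores were 35.0 and 34.6 in FNP, 34.1 and 53.3 in Mx, 49.6 and 34.1 in Md, 45.6 and 46.7 in PA2, 37.9 and 35.7 in PA2 KO, 34.6 and 30.7 in E12.5 pinna, and 25.1 and 31.2 in E14.5 pinna. The lowest values were in pinna libraries, but the E12.5 pinna value of 34.6 lay within the E10.5 range. The Irx3 and Irx5 baits, 556 kb apart, were likewise listed in all 14. Their scores were 34.6 and 36.0 in FNP, 36.0 and 39.3 in Mx, 42.9 and 49.0 in Md, 49.0 and 36.0 in PA2, 23.0 and 50 in PA2 KO, 36.0 and 35.3 in E12.5 pinna, and 34.9 and 34.6 in E14.5 pinna. The lowest and the highest value both came from PA2 KO, so replicates of 1 condition differed as much as conditions did.

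Scores of this size are rare at such distances. Of 57326 promoter pairs at least 500 kb apart that were listed in at least 1 library, 344, or 0.6%, were listed in all 14. By mean score over the 14 libraries, Irx3 with Irx5 ranked 25th, at 38.3, and Irx1 with Irx2 ranked 27th, at 37.7. These ranks describe the list and were given no test.

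The third gene of each cluster behaved differently. Irx1 and Irx4, 1296 kb apart, scored 11.28 and 14.48 in FNP, 11.3 and 15.1 in Mx, 15.2 and 11.0 in Md, 19.2 and 11.2 in PA2, and 19.6 and 17.3 in PA2 KO. In the pinna this pair was listed once, at 5.68 in E14.5 replicate 1, below every E10.5 value. How many other promoter pairs differ between the stages in this way was not counted. The mean of Irx1 with Irx4, 10.8 over all libraries, ranked 489th. Irx3 and Irx6, 872 kb apart, were listed in Md replicate 1 at 5.62 and in E12.5 pinna replicate 1 at 7.23, and in no other library. Irx2 with Irx4, 631 kb apart, and Irx5 with Irx6, 316 kb apart, were in no list, so the neighbouring promoters of each cluster on the Irx4 and Irx6 side stayed below a score of 5 although they lay closer together than the strong pair of the same cluster.

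**Figure D1:**
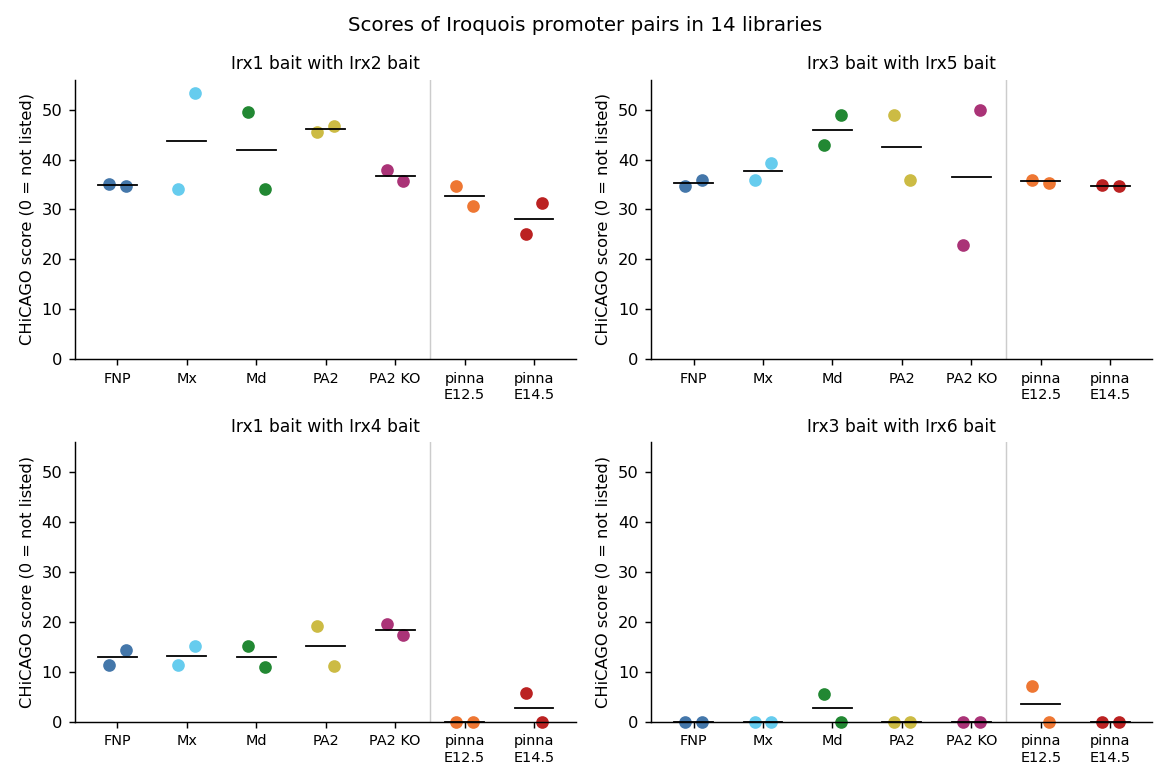
CHiCAGO scores of 4 promoter pairs in the 14 libraries by condition, where 0 means not listed, points are libraries, short lines are condition means and the grey line separates E10.5 from pinna. Irx1 with Irx2 and Irx3 with Irx5 lie above 20 in every library, Irx1 with Irx4 lies above 10 in every E10.5 library, and Irx3 with Irx6 is listed in 2 libraries.

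Irx1 and Irx3 were listed with many fragments around the partner promoter, and the view from the other end was narrower. Among the 13 fragments within 25 kb of the Irx2 bait, the Irx1 bait was listed with 8 to 10 in the E10.5 libraries and with 8 to 10 in the pinna libraries. Around Irx4, which had 19 such fragments, Irx1 was listed with 3 to 5 at E10.5 and with 0 to 1 in the pinna. Around Irx1, with 16 fragments, Irx2 was listed with 4 to 7 at E10.5 and with 4 to 5 in the pinna. From its own end, Irx4 was listed with 3 to 6 fragments around Irx2 at E10.5 and with 0 to 1 in the pinna, and Irx2 with 0 to 5 around Irx4 at E10.5 and with 0 in the pinna. So although the Irx2 and Irx4 baits never formed a listed pair, fragments beside them did at E10.5. On chromosome 8, Irx3 was listed with 9 to 13 of 23 fragments around Irx5 at E10.5 and with 8 to 10 in the pinna. In return Irx5 was listed with 1 to 4 of the 16 fragments around Irx3 at E10.5 and with 1 to 3 in the pinna, so in some libraries with 1 fragment alone. Around Irx6, Irx3 had 0 to 1 in both. Irx5 was listed with no fragment around Irx6 in any library. The window of 25 kb was chosen after the values were seen.

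Irx1 and Irx4 shared a short stretch at Irx2. Irx1 was listed in all 14 libraries with chr13:72633191-72633689, a fragment of 499 bp in Irx2, at 15.7 to 35.0 and on average 28.4. It was also listed in all 14 with the neighbouring fragments chr13:72633690-72639548, at a mean of 24.6, chr13:72639549-72641289, at 14.7, and chr13:72623818-72627543 in Gm20554, at 21.6. Irx4 was listed with the fragment of 499 bp in all 10 E10.5 libraries, at 5.60 to 10.6, and in 2 of 4 pinna libraries, at 5.64 and 5.33. It was listed with chr13:72633690-72639548 in 9 of 10 E10.5 libraries and in no pinna library. In the other direction, Irx2 was listed in all 14 libraries with chr13:71951476-71961761, which holds most of Irx1, at 11.0 to 33.1. Of 27 fragments inside the cluster listed with any of its baits, 16 were listed with 2 baits and none with all 3.

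In the Irx3-Irx5-Irx6 cluster the stretch that recurred most was around Crnde and Irx5, and it was reached by Irx3, seldom by Irx6. Irx3 was listed in all 14 libraries with chr8:92351744-92354872 in Crnde, at a mean of 28.5, and with the Crnde bait, chr8:92355207-92356598, at 15.2 to 24.9. The Crnde fragment printed above scored 6.14 to 28.7, with its lowest value in PA2 KO replicate 1 and its highest in E14.5 pinna replicate 2. Past the Irx5 start, chr8:92358548-92365319 was also listed with Irx3 in all 14, at a mean of 17.8. Farther into Irx5, chr8:92371975-92374241 was listed with Irx3 in all 10 E10.5 libraries and in 1 of 4 pinna libraries. Toward Irx6 the most frequent fragment was chr8:92616562-92618355, 55.9 kb before that gene, listed with Irx3 in 8 libraries. Of 48 fragments inside this cluster, 40 were listed with 1 bait, 8 with 2 and none with 3.

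**Figure D2:**
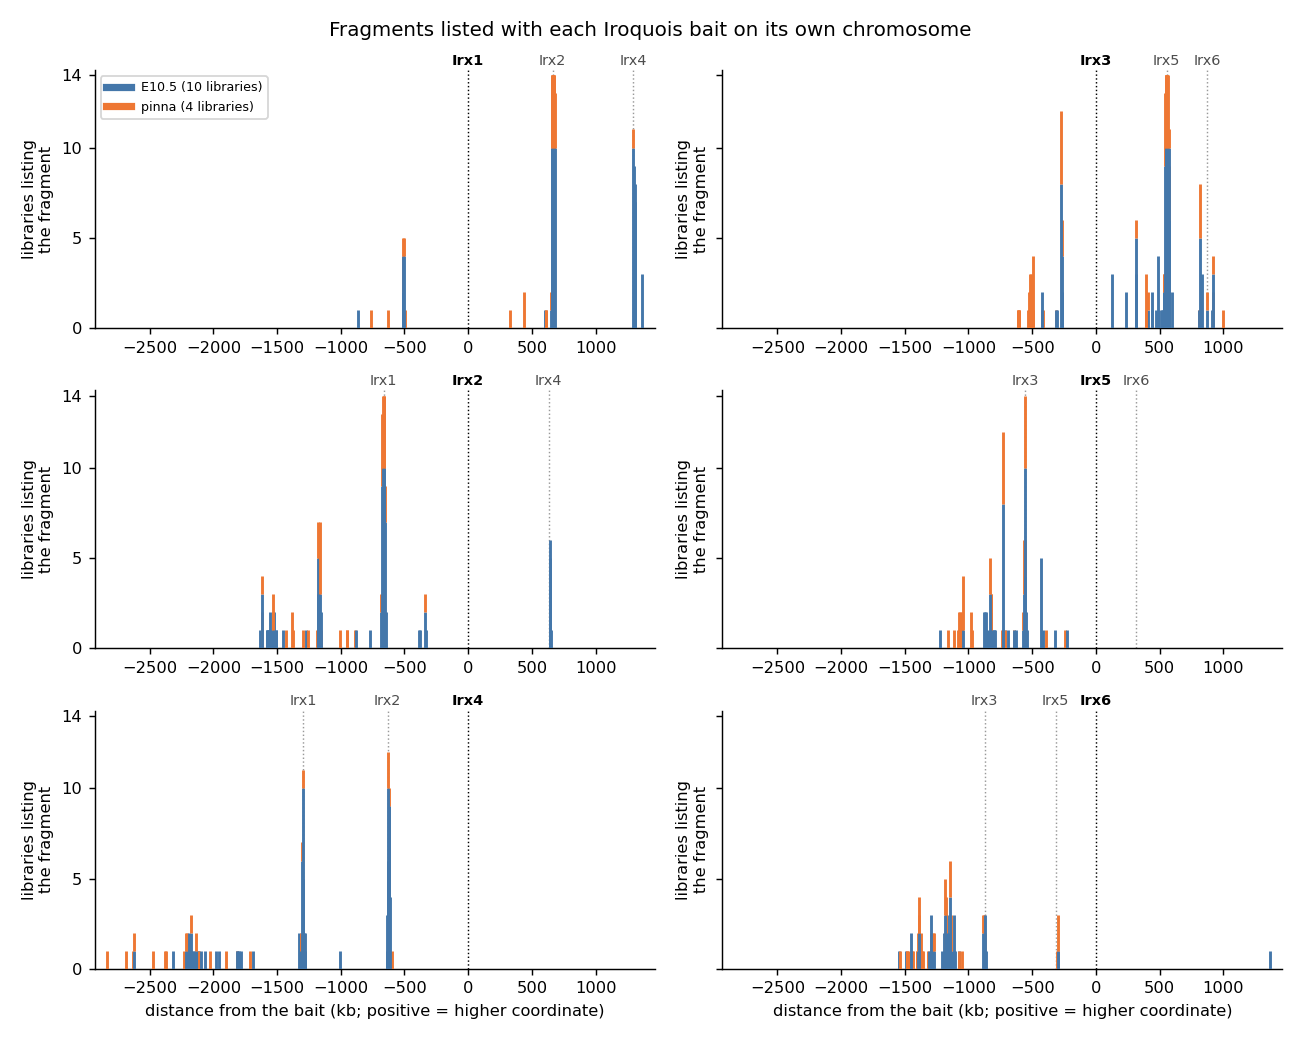
Each vertical line is a fragment listed with the named bait inside its cluster or within 2 Mb of it, placed by its distance in kb from the bait, and its height is the number of libraries that listed it, with E10.5 in blue and pinna in orange. Dotted lines mark the baits of the cluster. Lines reach 14 around Irx2 for the Irx1 bait and around Irx5 for the Irx3 bait, while the fragments at Irx4 that the Irx1 and Irx2 baits reached are almost entirely blue.

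The 6 baits differed in how much of their contact lay inside the cluster. Over the 14 libraries, 76.1% of the 197 same-chromosome listings of Irx1 and 75.5% of the 265 of Irx3 were inside. The shares were 54.3% of 138 for Irx4, 39.4% of 160 for Irx2, 31.5% of 108 for Irx5 and 10.1% of 109 for Irx6. Irx1 pointed mostly to higher coordinates, into its cluster (90.4% of listings), as did Irx3 (78.9%). Irx5 had no listing at higher coordinates, where Irx6 lies, and Irx6 had 2.75%, so both pointed toward Irx3 and beyond.

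All 6 baits had long-range contacts. No listing of Irx1, Irx2, Irx4 or Irx6 lay within 250 kb of the bait, and 1.89% of those of Irx3 and 1.85% of those of Irx5 did. Over the 12921 baits with at least 50 listings, the median share within 250 kb was 26.2%. Median distances were 669 kb for Irx1, 679 kb for Irx2, 1303 kb for Irx4, 552 kb for Irx3, 727 kb for Irx5 and 1184 kb for Irx6, against a median over those baits of 367 kb. None of these shares is extreme among the baits, since 18.1% of them also had no listing within 250 kb.

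The mean score over all 1266 pairs of a bait with a fragment inside the Irx1-Irx2-Irx4 cluster was highest in FNP, and its 3 lowest values were in the pinna. It was 0.269 and 0.289 in FNP, 0.239 and 0.265 in Mx, 0.237 and 0.221 in Md, 0.231 and 0.230 in PA2, 0.183 and 0.204 in PA2 KO, 0.179 and 0.174 in E12.5 pinna, and 0.119 and 0.216 in E14.5 pinna. FNP was highest, and the E12.5 pinna libraries lay below every E10.5 library, but E14.5 pinna replicate 2 lay among the E10.5 values. Conditions held 78.3% of the sum of squares between libraries (exact permutation test over 135135 ways of pairing, p = 0.0304, 0.0916 after Benjamini-Hochberg adjustment over the 5 measures). Pairs of libraries joined at random also hold some share, so here and below a share alone shows no difference between conditions. The Hoxa2-expressing libraries averaged 0.192 ± 0.0433 (SD, n = 6) and the Hox-negative ones 0.253 ± 0.0250 (SD, n = 6), a difference of -0.0618 (two-sided exact permutation test over 924 groupings, p = 0.0108, adjusted 0.0541). Neither value passed 0.05 after adjustment, and without both libraries that stood apart the test over conditions gave p = 0.138 and the difference was -0.0614, with p = 0.0317 (exact permutation tests). Wild-type PA2 is the only Hoxa2-expressing condition at E10.5, and its values of 0.231 and 0.230 lay between those of Md.

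In the Irx3-Irx5-Irx6 cluster the same mean over 843 pairs ran from 0.192 to 0.275, and the ranges of the conditions overlapped. Conditions held 25.4% of the sum of squares (exact permutation test, p = 0.873, adjusted 0.873), and the difference between the Hoxa2-expressing and Hox-negative libraries was -0.00744 (two-sided exact permutation test, p = 0.684, adjusted 0.790). Counted as listed pairs, conditions held 70.8% and the groups differed by -3.33 (exact permutation tests, p = 0.110 and 0.0736). Without FNP replicate 2 the share of the mean score was 46.5%, and without PA2 KO replicate 2 it was 43.6%, or 39.8% without E14.5 pinna replicate 2. Replicates of FNP, PA2, PA2 KO and E14.5 pinna were farther apart than the condition means were.

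The numbers of contacts outside the clusters, counted as fragments within 2 Mb that any bait of the cluster was listed with, showed their largest values outside Irx3-Irx5-Irx6 in the pinna. Outside Irx3-Irx5-Irx6 there were 7 and 12 in FNP, 12 and 10 in Mx, 7 and 15 in Md, 15 and 11 in PA2, 8 and 6 in PA2 KO, 11 and 20 in E12.5 pinna, and 23 and 38 in E14.5 pinna. The E14.5 pinna libraries lay above all others. Conditions held 77.6% of the sum of squares (exact permutation test, p = 0.0366, adjusted 0.0916). The Hoxa2-expressing libraries had 19.7 ± 10.2 (SD, n = 6) and were 9.17 higher than the Hox-negative ones, which had 7 to 15 and an SD of 3.15 (n = 6) (two-sided exact permutation test, p = 0.0498, adjusted 0.124). Neither passed after adjustment. At E10.5 the Hoxa2-expressing PA2 libraries had 15 and 11, within the range of the Hox-negative ones. When every library was cut to its 113670 highest-scoring same-chromosome pairs, the difference was 6.67 (two-sided exact permutation test, p = 0.0844), and at a score of at least 10 it was 1.5 (p = 0.565 in the same exact test). Outside Irx1-Irx2-Irx4 the counts ran from 4 in PA2 KO replicate 1 to 21 in Md replicate 2. Conditions held 60.4% of the sum of squares there (exact permutation test, p = 0.217), and the groups differed by -1.83 (two-sided exact permutation test, p = 0.450). Lists of equal length gave 18.0% and a difference of 0. The difference was -0.367 without Md replicate 2 and -2.77 without FNP replicate 1.

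Irx3 and the Fto gene body, chr8:91313525-91668439, were joined by 0 to 5 listed fragments of 107 per library. The mean score over these 107 pairs ran from 0 in Md replicate 1 to 0.301 in E14.5 pinna replicate 2, and replicates of FNP, Mx, Md and E14.5 pinna were far apart. Conditions held 32.0% of the sum of squares (exact permutation test, p = 0.772), and the groups differed by 0.0132 (two-sided exact permutation test, p = 0.790). The share was 68.0% without E14.5 pinna replicate 1, and 49.2% in lists of equal length. Irx5 was listed with 1 to 9 Fto fragments per library and Irx6 with 1 to 9, so Fto contacts were not a feature of Irx3 alone.

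**Figure D3:**
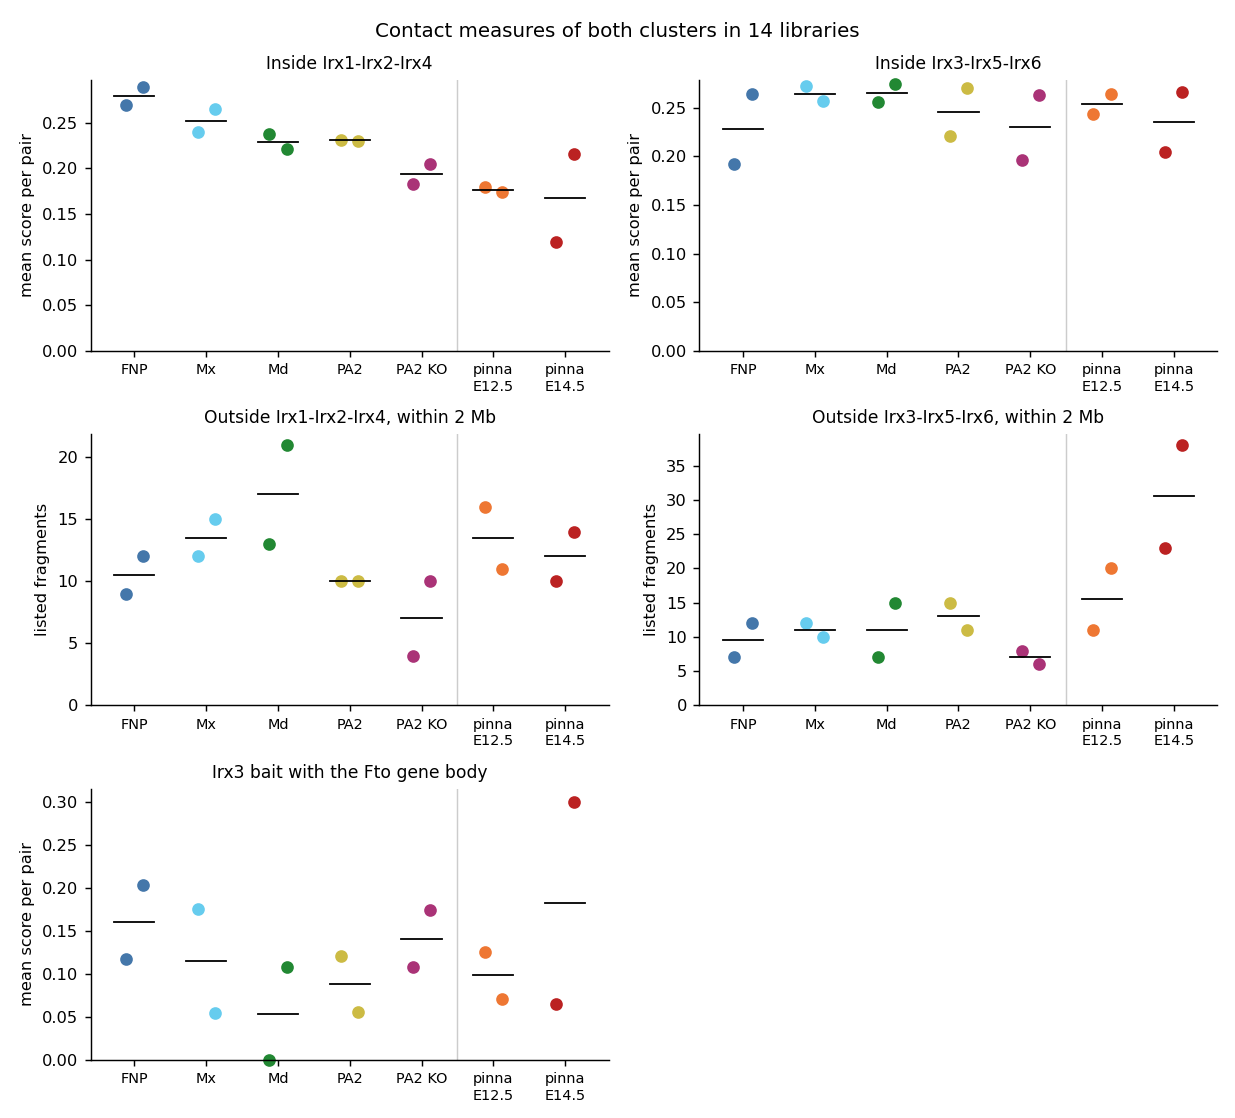
The 5 contact measures in the 14 libraries by condition, as mean score per pair or as number of listed fragments, with points for libraries, short lines for condition means and a grey line between E10.5 and pinna. Inside Irx1-Irx2-Irx4 the E12.5 pinna libraries lie below all E10.5 libraries, and outside Irx3-Irx5-Irx6 the E14.5 pinna libraries, at 23 and 38, lie above all others.

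Single pairs were tested on the asinh of the score, a scale that is nearly linear close to 0 and logarithmic for large scores, with limma, fitted to all pairs listed in at least 4 libraries. Of 437 different pairs with an Iroquois bait, 63 entered this fit. The rest, listed in fewer libraries, were not tested, so the counts below describe the recurrent pairs alone. A pair listed in exactly 4 libraries, as 10 of the 63 were, entered only through the libraries where it scored high, so its test is drawn from a filter that its own pattern decides. Over 7 conditions 4 of the 63 passed an adjusted p of 0.05, or 6.35%, while 4.35% of all 161898 pairs did. The share among Iroquois pairs was thus near that of the whole table. Without E12.5 pinna replicate 2 it was 2 pairs.

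Of the 4, both on chromosome 13 joined Irx1 to the Irx4 end of its cluster. Irx1 with the fragment past Irx4, chr13:73272251-73274067, 2.64 kb beyond the gene, scored 9.98 and 13.3 in FNP, 8.67 and 10.3 in Mx, 7.92 and 5.67 in Md and 10.3 and 15.4 in PA2. It was unlisted in both PA2 KO libraries and in all 4 pinna libraries (limma F test over 7 conditions, adjusted p = 0.00376). This split was read from the pair's own values and is not what the F test compares. How many of all pairs show such a split was not counted. The unlisted values, set to 0, left no spread within PA2 KO or the pinna conditions. The adjacent fragments were less regular. The fragment chr13:73271507-73272250 was listed in 7 of the 8 wild-type E10.5 libraries and in no PA2 KO or pinna library, but chr13:73270893-73271506 was listed in both PA2 KO libraries, at 10.45 and 10.54, and in 5 of the 8 wild-type ones. PA2 KO was therefore at 0 at some fragments of this stretch and not at others. Irx1 with Irx4 itself, whose values stand above, had an adjusted p of 0.0260 in the limma F test. It passed in 7 of 19 alternatives, with adjusted p up to 0.236, and was lost without either FNP, Mx, PA2 KO or E12.5 pinna library, Md replicate 1 or PA2 replicate 1.

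The 2 called pairs on chromosome 8 ended in Rpgrip1l. Irx3 with chr8:91302029-91306007 scored 6.68 and 8.88 in E12.5 pinna and 7.21 and 14.4 in E14.5 pinna and was unlisted in all 10 E10.5 libraries (adjusted p = 0.00585 in limma). Irx6 with chr8:91288125-91289692 scored 6.26 and 5.18 in PA2 and 6.91 and 5.13 in E14.5 pinna and was unlisted elsewhere (adjusted p = 0.00530 in limma). Both pairs were listed in exactly 4 libraries, the least the filter admits, so they entered the fit only through the libraries where they scored high. In the conditions without a listing both libraries were set to 0, which left no spread there. Their adjusted p values here and in the contrasts below therefore describe them without supporting a difference. The Irx6 scores lay close to the listing limit of 5, so a value just below it would have been read as 0. With scores capped at 20 neither Rpgrip1l pair passed in limma, at an adjusted p of 0.0581 for Irx3, and with quantile normalization the limma adjusted p for Irx6 was 0.224.

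**Figure D4:**
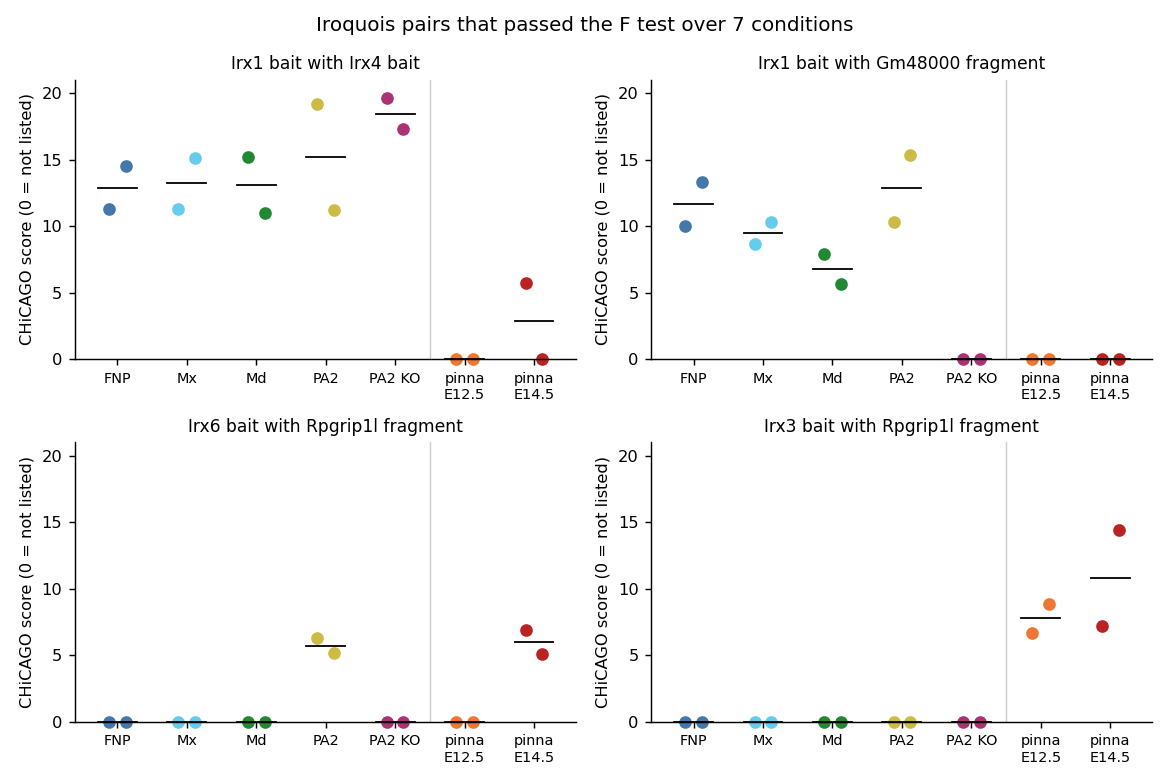
CHiCAGO scores of the 4 Iroquois pairs that passed the limma F test over 7 conditions, by condition, where 0 means not listed, points are libraries and short lines are condition means. Irx1 with the Irx4 bait is above 10 in all E10.5 libraries including PA2 KO, while Irx1 with the Gm48000 fragment past Irx4 is listed only in the 8 wild-type E10.5 libraries.

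The knockout comparison set PA2 KO against wild-type PA2. The PA2 KO lists were shorter, with 113670 and 120854 same-chromosome pairs against 140559 and 145035 in PA2, and an unlisted pair counted as 0. Whether list length lowered the PA2 KO values was not tested. Of the 63 pairs, 2 were lower in PA2 KO than in PA2 and none higher, or 3.17%, against 2.16% of all pairs, of which 1.8% were lower and 0.362% higher. They were Irx1 with the fragment past Irx4, which fell by 3.23 on the asinh scale (SE 0.490, limma, adjusted p = 0.00521), and Irx6 with its Rpgrip1l fragment, which fell by 2.44 (SE 0.429, limma, adjusted p = 0.0122). Inside Irx1-Irx2-Irx4, 16 of 21 pairs had a negative difference, with a median of -0.18, where 55.3% of all pairs did, with a median of -0.09. Inside Irx3-Irx5-Irx6 it was 10 of 17, with a median of -0.10. Without PA2 replicate 2, either PA2 KO library or either E14.5 library, 1 pair passed, and the Irx6 pair was lost without either PA2 KO library.

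From PA2 to the pinna at E12.5, 4 of the 63 pairs passed, or 6.35%, against 1.36% of all pairs. The 3 lower ones were Irx1 with Irx4, which fell by 3.38 (SE 0.624, limma, adjusted p = 0.0258), Irx1 with the fragment past Irx4 (adjusted p = 0.0203) and Irx6 with its Rpgrip1l fragment (adjusted p = 0.0228), where 0.709% of all pairs were lower. The higher one was Irx3 with its Rpgrip1l fragment, by 2.74 (SE 0.514, limma, adjusted p = 0.0283), where 0.647% of all pairs were higher. The call of this Irx3 pair was lost with the replicate block, quantile normalization, the cap of 20, and without either PA2 or either PA2 KO library, and it held in 7 of the 14 alternatives that could test it. Inside Irx1-Irx2-Irx4, 17 of 21 pairs had a negative difference, with a median of -0.51, where 50.9% of all pairs did, with a median of -0.01. This contrast shares the PA2 libraries with the knockout contrast. Without PA2 replicate 2 none of the 63 passed here, and without PA2 replicate 1, either PA2 KO library or E12.5 pinna replicate 2 it was 1, and without E12.5 pinna replicate 1 it was 2.

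Between E12.5 and E14.5 pinna, 1 of the 63 pairs passed, or 1.59%, against 0.901% of all pairs. It was Irx6 with its Rpgrip1l fragment, which was higher at E14.5 by 2.48 (limma, adjusted p = 0.0276), where 0.481% of all pairs were higher and 0.42% lower. Outside Irx3-Irx5-Irx6, 10 of 12 tested pairs had a positive difference, with a median of 0.77, where 50.4% of all pairs did. The pair was not called without either PA2 KO library or either E12.5 pinna library, with scores capped at 20, with quantile normalization or with the replicate block, and it could not be tested without either PA2 or either E14.5 library.

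Comparing the 6 Hoxa2-expressing with the 6 Hox-negative wild-type libraries, a filter of 2 libraries admitted 137 Iroquois pairs. None passed in limma, where 0.0234% of all 286702 pairs passed, 0.00628% higher and 0.0171% lower. An unadjusted limma p under 0.05 was found for 16 of the 137 and for 18621 of all pairs. The smallest adjusted p was 0.201, for Irx4 with chr13:72633690-72639548 in Irx2, with a difference of -2.36 on the asinh scale (SE 0.575). In the fit of 7 condition means, where spread between conditions of a group does not count as error, 5 of the 63 pairs passed, or 7.94%, against 2.58% of all pairs in that fit. Among the 5 were both Rpgrip1l pairs, listed in exactly 4 libraries, all of the Hoxa2-expressing group. The filter admitted these Rpgrip1l pairs only where they were high, so their calls support no difference. Inside Irx1-Irx2-Irx4, 24 of 29 pairs had a negative difference, with a median of -0.44, against 52.2% of all pairs. Outside Irx3-Irx5-Irx6, 33 of 47 had a positive difference, with a median of 0.65, against 47.8% of all pairs. The filter of 2 libraries can admit a pair through the group that listed it alone. Both counts of signs therefore describe the admitted pairs and support no difference between the groups.

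Beyond the Irx4 end, the baits of that cluster reached 1 to 5 fragments in each E10.5 library and 0 in each of the 4 pinna libraries. In lists cut to equal length it was 1 to 4 at E10.5 and 0 in the pinna. At the other end, between Irx1 and Adamts16, which encodes a secreted metalloprotease, the stretch, which holds few annotated genes, had 3 to 17 listed fragments at E10.5 and 9 to 14 in the pinna. Apart from a more frequent fragment close to Irx1, given below, the most frequent ones lay between chr13:71448718 and 71468090, 490 kb and more from Irx1. Of these, chr13:71455835-71468090 was listed with Irx2 in 7 libraries, all 4 pinna libraries among them, at 5.29 to 16.5, and with Irx1 in 5 libraries at 5.33 to 7.04. Close to Irx1, Irx2 was listed in 13 libraries with chr13:71948371-71951475 in Gm40999, at 5.62 to 10.3. Of 71 fragments outside this cluster, 22 were listed with 2 of its baits and 2 with all 3.

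On the Irx3 side, the stretch that separated the stages was Rpgrip1l and not Fto. In Fto the 3 baits reached 5 to 13 fragments at E10.5, against 7 and 9 in E12.5 pinna and 7 and 13 in E14.5 pinna. In Rpgrip1l they reached 0 to 1 in each of the 10 E10.5 libraries, 3 and 8 in the younger pinna, and 11 and 15 in the older. In lists of equal length the Rpgrip1l numbers were 0 to 1 at E10.5, 3 and 5 in the younger pinna and 7 and 14 in the older, so the ranges did not overlap there either. At E14.5 all 3 baits took part, Irx3 with 7 and 13 fragments, Irx5 with 4 and 8, and Irx6 with 3 and 6. The stretches were drawn after the values were seen, and their counts carry no test.

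Within Fto, a few fragments recurred over stages. Irx3 was listed in 12 libraries with the fragment chr8:91520865-91533786, which also overlapped Gm45290, at 5.83 to 8.78, and was missing from Md replicate 1 and PA2 replicate 2. The same fragment was listed with Irx6 in 6 libraries and with Irx5 in 5. Irx5 was listed in 12 libraries with chr8:91629527-91632363, the bait of the predicted gene Gm3235 inside Fto, at 6.00 to 14.7, and was missing from FNP replicate 1 and Mx replicate 2. The bait that holds the divergent starts of Fto and Rpgrip1l, chr8:91308537-91317081, was listed with Irx5 at 7.40 in FNP replicate 1, at 10.3 in E12.5 pinna replicate 2 and at 9.79 and 13.9 in E14.5 pinna. Of 79 fragments outside this cluster, 12 were listed with all 3 baits and 19 with 2.

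**Figure D5:**
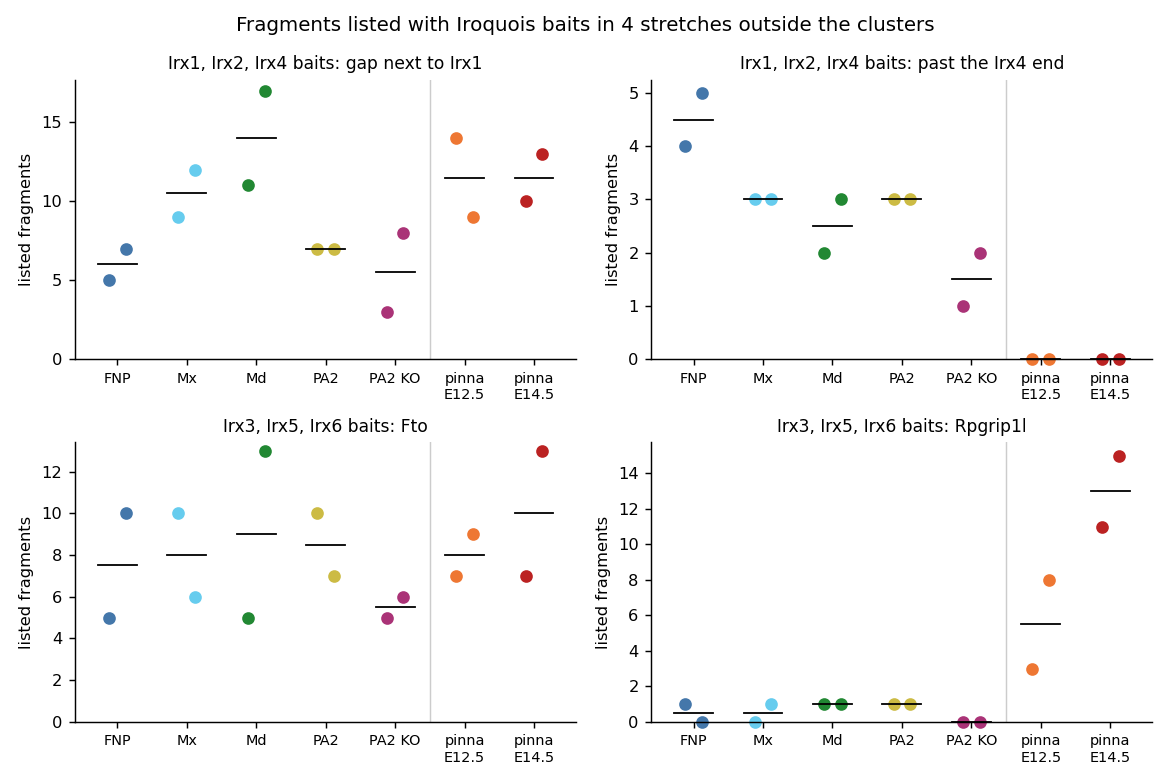
Numbers of fragments listed with any bait of the cluster in 4 stretches outside the clusters, by condition, with points for libraries, short lines for condition means and a grey line between E10.5 and pinna. Past the Irx4 end all pinna libraries are at 0, in Rpgrip1l the E10.5 libraries are at 0 or 1 while the pinna libraries reach 3 to 15, and the other 2 stretches show overlapping ranges.

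Counted per bait, the same-chromosome pairs of Irx6 ran from 1 to 19 per library. Irx6 had 13 and 5 in PA2, 2 and 1 in PA2 KO and 11 and 19 in E14.5 pinna. On log2 of the count plus 1, centred in each library, 0 of the 6 baits passed the limma F test over 7 conditions, and 4.03% of all 21991 tested baits passed. Irx6 had the smallest adjusted p, 0.0512, and its difference of PA2 KO from PA2 was -1.73 on the log2 scale (SE 0.50, limma, adjusted p = 0.155). Between the Hoxa2-expressing and Hox-negative libraries 0 of the 6 passed in limma, with a smallest adjusted p of 0.322, where 0.723% of all baits passed.

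The other TALE homeobox genes were read from a list of 12, the Meis, Pbx, Pknox and Tgif genes and Mkx, among which the Meis, Pbx and Pknox proteins are known cofactors of Hox proteins. Of their 15 tested baits, 1 passed the F test over conditions, the Meis1 bait that also holds Gm16141 (limma, adjusted p = 0.0313). The next were Meis2 at 0.0871, Pknox2 at 0.0902 and a Tgif2 bait at 0.0959. In that test 4.03% of all baits passed. Between the Hoxa2-expressing and Hox-negative libraries 0 of the 15 passed in limma, where 0.723% of all baits passed.

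The baits whose centred contact numbers ran most like an Iroquois bait over the 14 libraries included no TALE gene. They were led by Aldh4a1 for Irx1 (Pearson r = 0.901), Dynll2 for Irx2 (0.900), Asb4 for Irx3 (0.888), Cdkn2b for Irx4 (0.876), Gm45753 for Irx5 (0.879) and the bait of Rab22a and Ppp4r1l-ps for Irx6 (0.944). Each is the highest of 21991 baits over 14 points that share library list lengths, and the values are descriptions only.

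Some contacts ended at promoters of other genes, and how common this is among the contacts of all baits was not measured. The Irx3-Irx5-Irx6 baits were listed with 7 other baits of chromosome 8, of which the Crnde, Gm3235 and Fto with Rpgrip1l baits were listed in both libraries of at least 1 condition. The Irx1-Irx2-Irx4 baits were listed with 4 other baits of chromosome 13, among them that of Mrpl36 and Ndufs6, genes of the mitochondrial ribosome and of respiratory complex I, in 3 libraries, and none in both libraries of a condition. None of these 11 baits was of a gene on a list of developmental transcription factor families, which held 1.10% of all baits. With other chromosomes 104 pairs were listed, 102 of them in 1 library and none in both libraries of a condition. Md replicate 1 and E12.5 pinna replicate 2, whose lists held many pairs between chromosomes, gave 33 and 60 of these listings and the other 12 libraries 13. No pair joined the Iroquois clusters to each other.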

How the data were processed

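Promoter capture Hi-C libraries of 14 samples were analysed, 2 per condition, which the study describes as biologically independent replicates. Per its methods, the authors mapped reads with HiCUP to GRCm38 and deposited CHiCAGO scores of 5 or more for pairs of HindIII fragments. Read depth is unknown, so no counting interval was given, and fragments under 150 bp were outside the authors' design. Conditions were taken from the labels. Baits were matched to GENCODE vM21 starts on GRCm38. All 49516 fragments looked up matched a HindIII digest of that genome.

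Single values were compared by exact permutation tests. Pairs and baits were tested with limma 3.58.1 in R 4.3.3 over the whole table, with Benjamini-Hochberg adjustment, after a test on simulated data. Tables were made with pandas 2.3.3 in Python 3.11.15. Alternatives covered thresholds, list lengths, caps, filters, normalization, the replicate block and leaving out libraries.

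Pairs and genes named were the most recurrent or called ones, by number of libraries and mean score, with 3 most alike baits each. The genes, lists, stretches and windows were chosen with earlier results of these data known. The deposited lists of Md replicate 1 and of replicate 2 of the E12.5 pinna are marked as merged.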

Additional observations from a re-analysis of the deposited data

Results flagged for a closer look

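In the Irx3-Irx5-Irx6 cluster, the mean inside score of FNP replicate 1 was 0.192, far below the other 5 Hox-negative libraries. Its gap to the nearest of them was 0.766 of the range of the 6. The mean score of Irx3 with the Fto gene body was 0.301 in E14.5 pinna replicate 2, far above the other Hoxa2-expressing libraries, with a gap of 0.714 of their range. Chance alone marks about 1 in 20 groups in this way.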

How the results depend on the processing

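Of the single measures under their alternatives, 134 values kept direction and side of the threshold, 44 lost significance and 6 turned sign. Of the counts of calls, 94 stayed within 1.5 times the reported count and 40 did not. The cause was not tested for any of these changes. A score of at least 10 gave group differences (Hoxa2-expressing minus Hox-negative) of 0.0160 inside Irx3-Irx5-Irx6, which turned sign, -0.0435 inside Irx1-Irx2-Irx4 and 1.5 fragments outside Irx3-Irx5-Irx6, and a share between conditions of 63.7% for the last. Lists of equal length gave differences of 0.00708 inside Irx3-Irx5-Irx6 and -0.00386 for Irx3 with Fto, both turned in sign, 6.67 outside Irx3-Irx5-Irx6, and a share of 68.7% there. A window of 1 Mb gave a difference of 9 there. Irx3 with Fto gave no value at a score of at least 10, since no library listed such a pair.

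Same-numbered replicates did not deviate together (r of 0.0021 to 0.075 over pairs of conditions for contact pairs and -0.076 to 0.138 for baits), so the numbers were not taken as pairs. With the replicate block the values outside Irx3-Irx5-Irx6 stayed at 77.6% and 9.17 but missed the threshold (exact permutation tests, p = 0.0659 and 0.05), the E12.5 contrast lost Irx3 with Rpgrip1l and called 3 pairs, the E14.5 contrast lost Irx6 with Rpgrip1l and called 0, and the baits called 1, Irx6.

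Counts of called pairs over 7 conditions were 2 of 63 with scores capped at 20 (3.17%, against 1.1% of all pairs) and 13 of 144 with another filter (9.03%, against 7.99%). The knockout contrast called 1 with quantile normalization. The E12.5 contrast called 0 with the cap and with quantile normalization. The E14.5 contrast called 0 with each of these and 6 with another filter (4.17%, against 2.11% of all pairs). The contrast of the Hoxa2-expressing group called 5 from condition means (7.94%, against 2.58%), both Rpgrip1l pairs among them. The bait test called 1 without centring and 2 within 2 Mb. Counts under alternatives that stand without a share of all pairs or baits cannot show whether the whole table moved with them.

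Leaving out each library in turn gave shares of 73.6% to 96.6% inside Irx1-Irx2-Irx4, past the threshold only without an E14.5 pinna library, and differences of -0.0697 to -0.0473, all with p up to 0.0303 (exact permutation test). Outside Irx3-Irx5-Irx6 the ranges were 68.8% to 88.5% and 5.5 to 10.9, the lowest difference without E14.5 pinna replicate 2. For differences inside Irx3-Irx5-Irx6 the range was -0.0195 to 0.000603, turned without E14.5 pinna replicate 1, and for Fto -0.0224 to 0.0320, turned without Md replicate 1 (-0.00879) or E14.5 pinna replicate 2. Pair counts ran from 2, without E12.5 pinna replicate 2, to 6 over 7 conditions, 1 to 3 for the knockout, 0 to 5 for E12.5, 0 to 2 for E14.5 and 0 to 0 for the Hoxa2-expressing group. Bait counts ran from 0 to 1, with Irx6 called without Md replicate 1, PA2 replicate 2 or either E12.5 pinna library. The knockout count was 1 without PA2 replicate 2, a PA2 KO library or an E14.5 pinna library, and the pair Irx6 with Rpgrip1l was untested in several of these fits. Irx1 with the fragment past Irx4 passed the F test and the knockout contrast in all 19 alternatives, while Irx1 with Irx4 passed the F test in 7 of 19.

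Without Md replicate 1 and E12.5 pinna replicate 2, an alternative chosen after seeing the data, the share was 76.7% inside Irx1-Irx2-Irx4 and 83.9% outside Irx3-Irx5-Irx6, with a difference of 8.40, all past no threshold, while the difference inside Irx1-Irx2-Irx4 was -0.0614 (exact permutation test, p = 0.0317). The E12.5 contrast then called 1 pair, the E14.5 contrast 0 and the bait test 1. Scores below 5 were not listed and 2 libraries per condition limit the precision.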
